A study of Mus musculus with 6 samples.

Results

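H3K4me3 and H3K36me3 were examined at 7 genes for transcription factors of T cell identity, Tcf7, Satb1, Ets1, Lef1, Bcl11b, Gata3 and Tox, in mature CD4+ and mature CD8+ T cells taken from the thymus (mouse strain C57BL/6). Each gene was taken as 1 fixed window of mouse build mm9, and a read was counted where its midpoint lay. The windows ran from 45 kb for Tcf7 to 330 kb for Tox. They held 28 of the 16510 H3K4me3 domains found when the domains of both cell types were merged. Nuclei of both cell types were cut to mononucleosomes with micrococcal nuclease. Rabbit polyclonal antibodies against either mark were used on both, and an input with no antibody was sequenced for each. The 6 groups had 1 library each, so no p-value is given and all intervals cover counting error only. The age and number of the mice and the gates behind each population were not given in the sources used here.

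H3K4me3 is a histone mark of promoters, placed most strongly around CpG-rich start sites, and genes that define a cell type often carry it over broad domains that reach into the gene. H3K36me3 is laid down over gene bodies as RNA polymerase elongates. Tcf7 encodes TCF-1, an HMG-box factor needed to specify the T lineage, and Lef1 encodes its close relative. Bcl11b encodes a zinc finger factor of T lineage commitment, and Gata3 a GATA zinc finger factor needed for T cell development and for the CD4 lineage. Satb1 encodes an organiser of chromatin in thymocytes, Ets1 the founding member of the ETS family, and Tox an HMG-box factor needed for CD4 lineage development.

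Promoter sequences show where several of these genes start. RefSeq, in build GRCm38.p6, listed 13 start sites for 5 of the 7 genes, and Ets1 and Tox were not among them. Lef1 and Satb1 are shown because both had a later start site and, in the data, a further H3K4me3 domain inside the gene. The 250 bases before listed starts 1 and 4 of each gene are printed 5′ to 3′ with every CG in capitals. Their positions in GRCm38.p6 are chr3:131110047-131110296 and chr3:131156044-131156293 on the plus strand for Lef1, and chr17:51833291-51833540 and chr17:51812185-51812434 on the minus strand for Satb1.
Lef1, start 1: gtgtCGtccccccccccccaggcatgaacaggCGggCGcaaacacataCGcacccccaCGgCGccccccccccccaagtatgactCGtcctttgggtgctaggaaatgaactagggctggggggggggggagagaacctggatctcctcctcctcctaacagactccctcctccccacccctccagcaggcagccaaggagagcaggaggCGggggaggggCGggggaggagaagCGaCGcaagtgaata
Lef1, start 4: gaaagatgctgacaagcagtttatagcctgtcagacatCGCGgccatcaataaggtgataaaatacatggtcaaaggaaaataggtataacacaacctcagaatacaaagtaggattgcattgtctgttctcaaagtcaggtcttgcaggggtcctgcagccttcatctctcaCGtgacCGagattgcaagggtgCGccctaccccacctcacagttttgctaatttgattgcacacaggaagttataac
Satb1, start 1: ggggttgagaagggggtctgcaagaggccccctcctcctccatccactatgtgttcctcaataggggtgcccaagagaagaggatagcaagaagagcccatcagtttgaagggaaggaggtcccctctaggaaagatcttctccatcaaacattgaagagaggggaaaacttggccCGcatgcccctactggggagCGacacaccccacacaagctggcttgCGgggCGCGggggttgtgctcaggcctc
Satb1, start 4: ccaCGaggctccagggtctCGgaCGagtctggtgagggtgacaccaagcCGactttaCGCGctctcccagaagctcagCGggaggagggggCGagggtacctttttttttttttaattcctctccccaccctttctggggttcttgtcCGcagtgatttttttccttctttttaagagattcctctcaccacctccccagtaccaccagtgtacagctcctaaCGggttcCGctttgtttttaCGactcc
The first Lef1 start had 11 CGs, and 35.6% of the 32851 RefSeq promoters of this length had at least as many. Start 4 of Lef1 had 5, matched or passed by 55.6% of promoters. The first Satb1 start had 5 CGs and its start 4 had 12, matched or passed by 33.5%. The second Satb1 start, 0.643 kb from the first, had 41, which only 1.09% of promoters matched or passed. The median over all promoters was 6. The first starts of Tcf7, Gata3 and Bcl11b had 37, 19 and 9 CGs.

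The libraries held between 6730337 and 12114294 reads after reads outside the main chromosomes were left out. The H3K4me3 libraries differed in 2 ways that touch all that follows. The share of reads at distinct positions was 54.4% for CD4 cells and 31.4% for CD8 cells. Away from enriched regions the library from CD4 cells had 19.2% of the input level and that from CD8 cells 1.20%. The H3K36me3 libraries were alike in both, with 91.2% distinct positions for CD4 and 91.8% for CD8, and a background of 31.7% of input for CD4 and 32.5% for CD8. The labels were checked at the loci of lineage genes, placed from general knowledge. H3K4me3 reads numbered 2221 in CD4 cells and 73 in CD8 cells at Cd4, and 625 in CD4 cells and 8719 in CD8 cells at Cd8a and Cd8b1. A CD4 over CD8 ratio is given on a log2 scale, centred on its median over 2 kb windows (H3K4me3) or 10 kb windows (H3K36me3) enriched in both cell types. In chromatin from many cells, fewer marked cells and less mark per cell cannot be told apart.

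All 7 genes carried a H3K4me3 domain in both cell types, and at every one the widest domain was wider in CD4 cells. A domain was made of 200 bp bins at 4 times the input or more, with gaps of 400 bp or less bridged. The widest domains had a median of 9.2 kb in CD4 cells and 3.6 kb in CD8 cells, against a median of 1 kb for all domains in each. At 3 of the 7 genes, Satb1, Ets1 and Lef1, the domain was at least 2-fold wider in CD4 cells, and at 2 with 1 read per position, wider gaps or pooled inputs. Of 13475 domains found in both cell types 9.84% were that much wider in CD4, and of the 253 that spanned at least 4 kb, 23.7%. Being wider in CD4 at all was common among such wide domains, 74.7% of them.

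Tcf7 had one of the widest domains of either genome-wide set. It spanned 11.6 kb in CD4 cells and 11.4 kb in CD8 cells, with the same upstream end in both. By width it ranked 3 of 15608 domains in CD4 cells and 1 of 14871 in CD8 cells. By reads it ranked 1 in CD4 cells and 5 in CD8 cells. This Tcf7 domain was therefore nearly equal in extent in the 2 cell types, and which one was wider changed with the domain rule. With 8 times the input it was 9.2 kb in CD4 cells and 10.4 kb in CD8 cells, and with 1 read per position 13 kb in CD4 cells and 13.2 kb in CD8 cells.

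Satb1 and Ets1 had domains of similar rank in CD4 cells that were broken up in CD8 cells. The Satb1 domain was 12.4 kb wide in CD4 cells and ranked 2. In CD8 cells the widest Satb1 domain was 3.4 kb and ranked 224, with 3 fragments of 0.2 to 0.4 kb further into the gene. The Ets1 domain was 9.4 kb in CD4 cells, rank 8, and 2.8 kb in CD8 cells, rank 448. Ets1 also kept 3 further CD8 fragments of 0.8 to 1.4 kb inside the CD4 domain. Joined over gaps of up to 1000 bp, the Ets1 domain measured 11.2 kb in CD4 cells and 6.6 kb in CD8 cells.

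Lef1 lay between these patterns. Its domain was 9.2 kb in CD4 cells, rank 10, and 4.2 kb in CD8 cells, rank 94, where a second piece of 3 kb covered much of the remainder. Lef1 was 2.19-fold wider in CD4 cells, and with 1 read per position 9.4 kb in CD4 cells and 5 kb in CD8 cells, under 2-fold.

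The other 3 genes had domains that differed less between the cell types, and in CD4 cells they were narrower than those of the 4 genes above. Bcl11b had 6.4 kb in CD4 cells and 4.6 kb in CD8 cells, rank 31 in CD4 and rank 68 in CD8. Gata3 had 4.8 kb in CD4 cells and 3.6 kb in CD8 cells, rank 119 in CD4 and rank 179 in CD8. Tox had 3.2 kb in CD4 cells, the narrowest of the 7, and 2.8 kb in CD8 cells, where it tied with Ets1. Those widths were matched or passed by 3.06% of all CD4 domains and 3.01% of all CD8 domains. Gaps of up to 1000 bp turned the order at Bcl11b, to 7.8 kb in CD4 cells and 8.6 kb in CD8 cells.

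**Figure D1:**
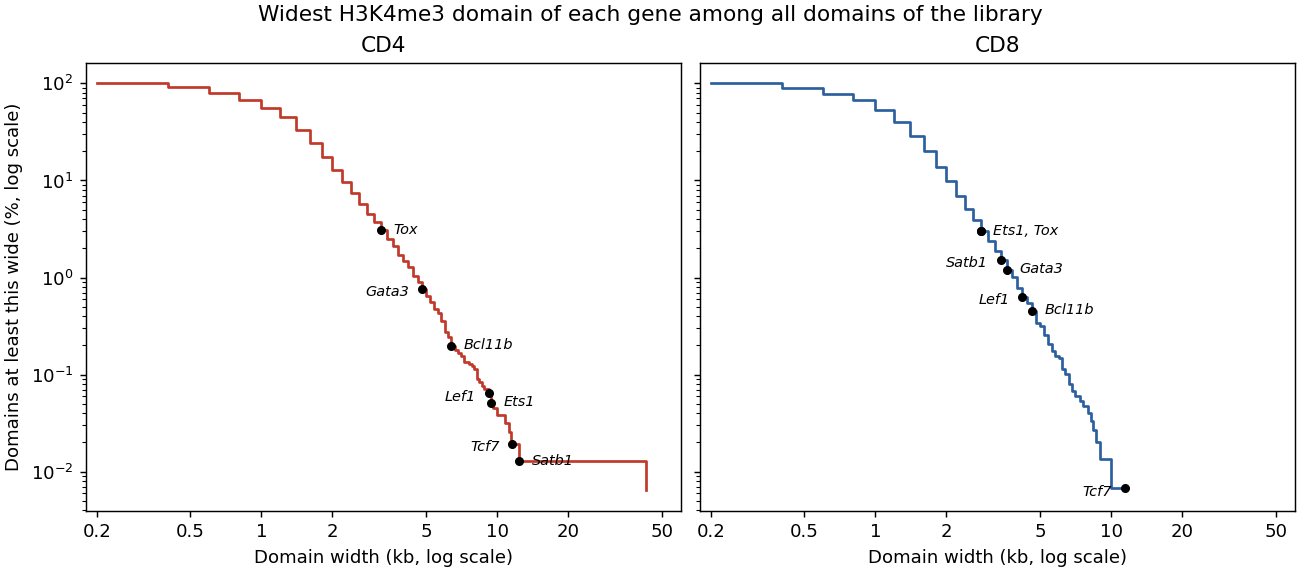
Share of all H3K4me3 domains at least as wide as the value on the x axis (log scale, kb) in CD4 cells (left) and CD8 cells (right), with a point for the widest domain of each gene. Satb1, Tcf7, Ets1 and Lef1 lie between 9.2 and 12.4 kb in CD4 cells, while in CD8 cells Tcf7 alone is past 4.6 kb.

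H3K4me3 reads over the domains were more frequent in CD4 cells at all 7 genes after centring, all but Tox with scaling by total reads. With all domains of a gene pooled, 2 genes, Ets1 and Satb1, were called higher in CD4 cells. Of the main domains taken alone, only that of Ets1 was called, at a log2 ratio of 1.94. The main domain of Satb1 was at 0.996. The shares that follow are of single domains. A call asked for a 2-fold difference with an exact 99.9% interval that left out a ratio of 1. Of all 16510 domains 20.8% were called higher in CD4 and 5.45% higher in CD8, and of the 259 domains of at least 4 kb, 25.9% higher in CD4 and 1.54% higher in CD8. The median log2 ratio of the 7 genes was 0.92. It was 0.02 over all domains and 0.42 over those of at least 4 kb. Scaling by total reads in place of the median lowers every H3K4me3 log2 ratio by 0.40.

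Ets1 had the largest ratio of the 7 genes, with 5797 reads in CD4 cells against 2238 in CD8 cells, a log2 ratio of 1.95 (95% interval 1.88 to 2.02). Satb1 had 5238 reads in CD4 cells against 3828 in CD8 cells, a log2 ratio of 1.03 (0.97 to 1.09). The Ets1 call held under every scaling tried, while the Satb1 value was 0.63 with total reads and 0.97 with scaling on reads in enriched windows, both short of the 2-fold threshold.

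Tcf7 and Lef1 encode related HMG-box factors of the Wnt pathway. Tcf7 had 8795 reads in CD4 cells against 6922 in CD8 cells, a log2 ratio of 0.92 (0.88 to 0.97). Lef1 had 4835 reads in CD4 cells against 4935 in CD8 cells, a log2 ratio of 0.55 (0.49 to 0.61). Raw counts at Lef1 were nearly equal, and the raw log2 ratio taken as no difference was −0.58. With 1 read per position the order of the pair turned and their intervals overlapped, with Tcf7 at 0.43 (0.36 to 0.50) and Lef1 at 0.53 (0.44 to 0.61).

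The zinc finger factors stood close to Tcf7. Bcl11b had 2837 reads in CD4 cells against 2304 in CD8 cells, a log2 ratio of 0.88 (0.80 to 0.96). Gata3 had 3388 reads in CD4 cells against 2667 in CD8 cells, a log2 ratio of 0.92 (0.85 to 0.998). Neither reached the 2-fold threshold, and with 1 read per position Bcl11b was at 0.49 and Gata3 at 0.73.

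Tox was the gene whose direction depended on the scaling. It had 2147 reads in CD4 cells against 2863 in CD8 cells, a log2 ratio of 0.16 (0.08 to 0.24), which became −0.24 when scaled by total reads.

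H3K4me3 levels were taken in RPM (reads scaled to library size) per kb of the merged domains of both cell types. By this level the order of the genes differed between the cell types. In CD4 cells Tcf7 was highest at 56.1, followed by Ets1 at 48.2 and Tox at 47.6, which did not differ beyond counting error. Gata3 at 37.6 and Lef1 at 30.9 followed. Satb1 at 27.1 and Bcl11b at 25.9 closed the order, and that last pair also overlapped. In CD8 cells Tox was highest at 56.3, ahead of Tcf7 at 39.1, Lef1 at 27.9 and Gata3 at 26.2. Bcl11b at 18.6, Satb1 at 17.6 and Ets1 at 16.5 were lowest. Ets1 thus stood second in CD4 cells and last in CD8 cells, the widest change of place among the 7 by this measure. The merged domains spanned 11.2 kb at Ets1 and 18 kb at Satb1, of which CD8 domains covered 6 kb at each gene. The low CD8 places of Ets1 and Satb1 therefore follow in part from the length used.

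**Figure D2:**
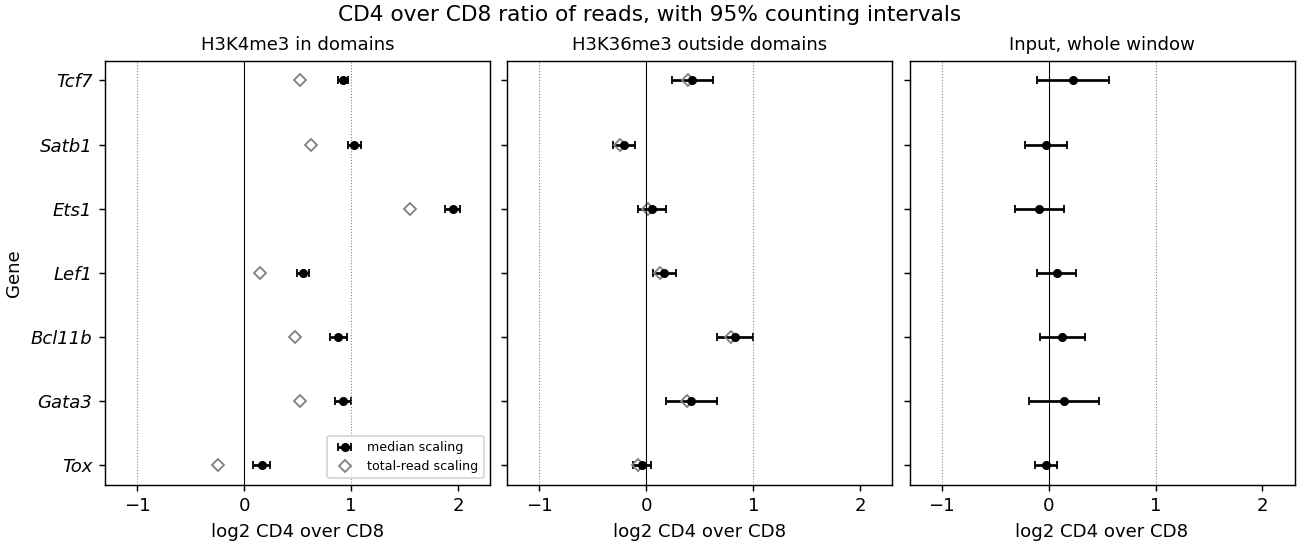
Log2 ratio of reads, CD4 over CD8, for each gene, with H3K4me3 inside domains (left), H3K36me3 outside domains (middle) and input over the whole window (right). Filled points are centred on the median with 95% counting intervals, open diamonds are scaled by total reads, and dotted lines mark 2-fold. Ets1 stands apart at 1.95 for H3K4me3, while no H3K36me3 value passes 0.83 and all input intervals include 0.

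In smaller windows each gene had at least 1 called higher in CD4 cells, but most of these lay in Ets1, Satb1 and Gata3. Of the 71 windows of 2 kb enriched in either cell type, 43 were called higher in CD4 cells and 0 higher in CD8 cells. Over the genome 25% of 24614 such windows were called higher in CD4 and 5.08% higher in CD8. Ets1 had 12 of its 13 windows called, Satb1 11 of 13 and Gata3 6 of 7. Tcf7 had 5 of 11, Lef1 4 of 12, Bcl11b 4 of 12 and Tox 1 of 3. All these windows come from the same pair of libraries and neighbours are not independent.

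Within the domains the CD4 excess was greatest on the side of the gene body. Each main domain was divided into the 1 kb on either side of its summit, the part beyond this on the gene side and the part beyond it upstream. This division was chosen after the profiles were seen. The summit was the 200 bp bin with the most scaled reads of both libraries together. At all 7 genes the CD4 over CD8 ratio was higher on the gene side than around the summit. At all 6 genes whose domain reached more than 1 kb upstream, it was higher on the gene side than upstream. The same division was not made at other wide domains, so these counts do not set the 7 genes apart. The densest 1 kb of CD8 reads lay upstream of the summit at Ets1 (−1.6 kb) and Bcl11b (−1.4 kb). There 43.7% and 45.8% of the CD8 reads of the main domain, in that order, fell in the upstream part. With scaling by total reads the gene-side values stayed above 0 at all 7 genes, the lowest 0.24 at Tox. Around the summit the values of Tox (−1.07), Lef1 (−0.64) and Satb1 (−0.37) were then below 0. So were the upstream values of Ets1 (−0.52), Bcl11b (−0.45), Tcf7 (−0.25) and Lef1 (−0.15). The outer edge was set by the CD4 library wherever its domain was the wider one, so the size of the gene-side ratio follows in part from how the domain was drawn.

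Satb1 had the largest contrast. On the gene side it had 1878 reads in CD4 cells against 277 in CD8 cells, a log2 ratio of 3.34 (3.16 to 3.53), and around the summit 1823 in CD4 cells and 2658 in CD8 cells, a log2 ratio of 0.03. The Satb1 bin at chr17:51969001-51970000, beside the summit, had 342 reads in CD4 cells against 1 in CD8 cells. The bin at chr17:51971001-51972000, just upstream of the summit, had 522 reads in CD4 cells against 1344 in CD8 cells. Further upstream Satb1 was again higher in CD4 cells, with 771 reads there against 414 in CD8 cells, a log2 ratio of 1.48 (1.30 to 1.65). Raw CD4 counts at Satb1 were thus lower close to the summit and higher on both sides. The centred ratio of 0.03 around the summit was near no difference. Counting each position once, that part had 654 in CD4 cells and 603 in CD8 cells.

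Ets1 and Lef1 also had their highest ratio on the gene side, but differed at the summit. Ets1 had 2989 reads in CD4 cells against 671 in CD8 cells on the gene side, a log2 ratio of 2.73. Around the Ets1 summit it had 2018 in CD4 cells and 556 in CD8 cells, a log2 ratio of 2.44, and upstream 587 in CD4 cells and 951 in CD8 cells, a log2 ratio of −0.12. Lef1 had 2052 reads in CD4 cells against 828 in CD8 cells on the gene side, a log2 ratio of 1.89, and around the summit 1644 in CD4 cells and 2889 in CD8 cells, a log2 ratio of −0.23. Single bins were further apart. The Ets1 bin at chr9:32506001-32507000 had 599 reads in CD4 cells against 45 in CD8 cells, and the Lef1 bin at chr3:130817001-130818000 had 271 in CD4 cells and 11 in CD8 cells.

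Gata3 and Bcl11b followed over shorter stretches. Gata3 had 408 reads in CD4 cells against 60 in CD8 cells over 1.5 kb on the gene side, a log2 ratio of 3.34, against 0.51 around the summit. Its upstream part was also higher in CD4 cells, at 1.24. Bcl11b had 444 reads in CD4 cells against 190 in CD8 cells on the gene side, a log2 ratio of 1.80, against 1.38 around the summit and −0.05 upstream.

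Tcf7 and Tox had the smallest gene-side ratios. Tcf7 had 4552 reads in CD4 cells against 2966 in CD8 cells there, a log2 ratio of 1.20, against 0.76 around the summit and 0.15 upstream. Tox had 1463 reads in CD4 cells against 1394 in CD8 cells, a log2 ratio of 0.65, and around the summit 599 in CD4 cells and 1420 in CD8 cells, a log2 ratio of −0.67. Tox therefore combined a CD4 excess inside the gene with a CD8 excess at its edge, and the 2 nearly balanced over the whole domain.

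As a share of the domain's own reads, which no scaling of the libraries changes, the gene side held more in CD4 cells at all 7 genes. It held 42.0% of the Satb1 domain in CD4 cells and 8.27% in CD8 cells, and 49.98% of the Lef1 domain in CD4 cells and 19.6% in CD8 cells. At Ets1 it held 53.4% in CD4 cells and 30.8% in CD8 cells, and at Tcf7, the least different in ratio, 53.5% in CD4 cells and 44.3% in CD8 cells. Counting each position once kept the order at all 7 genes, with 54.0% in CD4 cells and 18.2% in CD8 cells at Satb1, and 61.0% in CD4 cells and 55.8% in CD8 cells at Tcf7. The background of the CD4 library, at the level measured away from enrichment, amounted to at most 5.26 reads in any of these gene-side stretches. Background close to the domains was not measured and may differ from that level. Gene-side shares were not measured at other wide domains.

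The share of reads in the densest 1 kb, which needs no summit, was lower in CD4 cells at 4 of the 7 genes. It was 29.8% in CD4 cells and 67.6% in CD8 cells at Satb1, and 41.2% in CD4 cells and 69.7% in CD8 cells at Gata3. Lef1 had 25.1% in CD4 cells and 48.3% in CD8 cells. Ets1 had 27.4% in CD4 cells and 38.8% in CD8 cells. It was the other way round at Tcf7, with 26.1% in CD4 cells and 23.4% in CD8 cells. Bcl11b had 38.1% in CD4 cells and 30.3% in CD8 cells, and Tox 62.0% in CD4 cells and 53.0% in CD8 cells. Counting each position once left Tcf7, Bcl11b and Tox nearly equal. Tcf7 was then at 16.54% for CD4 against 16.49% for CD8. Bcl11b was at 28.9% for CD4 against 27.4% for CD8, and Tox at 50.1% for CD4 against 49.7% for CD8. Satb1, Gata3, Lef1 and Ets1 stayed lower for CD4 by this count, with Ets1 at 20.8% against 29.1% for CD8. Of 257 domains of at least 4 kb with enough reads, 72.8% were more concentrated in CD8 cells, so 4 of 7 does not set these genes apart.

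Beyond the main domains the windows held 21 smaller ones, of which 12 were called higher in CD4 cells and 0 higher in CD8 cells. Of all 16510 domains, 20.8% were called higher in CD4 and 5.45% higher in CD8. Several of the 12, at every gene but Tox, met the domain rule in CD4 cells alone. Their CD4 excess therefore follows in part from how they were found. Bcl11b also had smaller domains found in CD8 cells alone. Of the 16510, 13475 had a domain in both cell types. The second Lef1 domain, at chr3:130859001-130861200, lay 45.2 kb into the gene. RefSeq starts 1 and 4 of Lef1, whose sequences are printed above, are 45.997 kb apart in GRCm38.p6, though those starts were not placed in mm9. That domain had 243 reads in CD4 cells against 324 in CD8 cells, a log2 ratio of 0.16 (−0.08 to 0.41). A neighbouring Lef1 domain at chr3:130862401-130863600 had 113 reads in CD4 cells against 30 in CD8 cells, a log2 ratio of 2.49 (1.90 to 3.12). This neighbouring domain, found in CD4 cells alone, lay further into the gene than the domain of near equal level.

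Satb1 had a comparable inner site. Its domain at chr17:51949601-51954000 was centred 19.1 kb into the gene, and RefSeq starts 1 and 4 are 21.106 kb apart. It had 684 reads in CD4 cells against 468 in CD8 cells, a log2 ratio of 1.13 (0.95 to 1.30). This merged domain joined CD4 domains of 2.4 and 1 kb with a CD8 domain of 1.8 kb. Over the CD8 domain alone, at chr17:51951401-51953200, reads numbered 293 in CD4 cells against 441 in CD8 cells. The CD4 excess thus lay outside the stretch called in CD8 cells. The next Satb1 domain inward, at chr17:51948001-51948800, had 55 reads in CD4 cells against 4 in CD8 cells. The one after it, at chr17:51945401-51945800, had 27 in CD4 cells and 7 in CD8 cells.

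All 3 smaller Gata3 domains were called higher in CD4 cells. The one upstream at chr2:9810601-9811600 had 248 reads in CD4 cells against 134 in CD8 cells, a log2 ratio of 1.47 (1.16 to 1.78). Ets1 had 2 inside the gene, with 110 reads in CD4 cells against 24 in CD8 cells at chr9:32517001-32518000. Bcl11b had the most small domains, 5, and they pointed both ways. One at chr12:109234601-109235200 had 44 reads in CD4 cells against 11 in CD8 cells, and one at chr12:109229401-109229600 had 5 in CD4 cells and 27 in CD8 cells. For Ets1 the window was shorter than the span RefSeq gives the gene, 80 kb against 121.58 kb. In the 60 kb upstream of it the strongest domain, at chr9:32479601-32480400, had 287 reads in CD4 cells against 371 in CD8 cells.

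H3K36me3 was above input at all 7 genes in both cell types, though not along their whole length. Of the 33 windows of 10 kb at Tox, 13 were enriched in CD4 cells and 15 in CD8 cells. Of the 12 at Bcl11b, 7 were enriched in CD4 cells and 5 in CD8 cells. Outside the H3K4me3 domains it was at least 2-fold over input at all 7 genes in CD4 cells and in CD8 cells, and at 6 in CD8 cells with pooled inputs. None of the 7 reached a 2-fold difference between the cell types there, and the median log2 ratio was 0.17. In windows of 10 kb, 2 of the 63 tested in these genes were called higher in CD4 cells and 0 higher in CD8 cells. Over the genome 2.08% of 30253 were called higher in CD4 and 0.84% higher in CD8.

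Bcl11b had the largest H3K36me3 difference. It had 790 reads in CD4 cells against 458 in CD8 cells outside its domains, a log2 ratio of 0.83 (0.66 to 0.999). Its fold over input was 3.26 in CD4 cells and 2.03 in CD8 cells. Input over the same window numbered 399 reads in CD4 cells against 358 in CD8 cells. Both called windows were in Bcl11b, with 101 reads in CD4 cells against 46 in CD8 cells at chr12:109150001-109160000, and 65 in CD4 cells against 31 in CD8 cells at chr12:109210001-109220000. The excess ran along the whole gene, with log2 ratios of 0.89, 0.82 and 0.95 in the promoter-side, middle and far parts of equal length.

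Tcf7 and Gata3 had smaller excesses in CD4 cells. Tcf7 had 536 reads in CD4 cells against 410 in CD8 cells, a log2 ratio of 0.43 (0.24 to 0.62). Gata3 had 340 reads in CD4 cells against 262 in CD8 cells, a log2 ratio of 0.42 (0.18 to 0.66). Lef1 had 1530 reads in CD4 cells against 1402 in CD8 cells, a log2 ratio of 0.17 (0.06 to 0.28). At Tcf7, Gata3 and Lef1 the counting interval left out 0, but with 1 library each the spread between cell preparations was not measured. Over input, the intervals of the 2 cell types overlapped at Tcf7, Gata3 and Lef1. The folds were 6.92 in CD4 cells and 6.18 in CD8 cells at Tcf7. They were 3.54 in CD4 cells and 2.98 in CD8 cells at Gata3, and 4.95 in CD4 cells and 4.71 in CD8 cells at Lef1.

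Satb1 had the opposite sign. It had 1402 H3K36me3 reads in CD4 cells against 1669 in CD8 cells, a log2 ratio of −0.21 (−0.31 to −0.10), with a fold over input of 5.58 in CD4 cells and 6.66 in CD8 cells. Satb1 was thus higher in CD4 cells for H3K4me3 over its domains and lower in CD4 cells for H3K36me3 over its body.

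Ets1 and Tox had H3K36me3 ratios whose intervals included 0. Ets1 had 1011 reads in CD4 cells against 1004 in CD8 cells, a log2 ratio of 0.05 (−0.07 to 0.18). This stands beside a log2 ratio of 1.95 for H3K4me3 at the same gene. Tox had 2169 reads in CD4 cells against 2300 in CD8 cells, a log2 ratio of −0.04 (−0.13 to 0.04). The order of the 7 genes in H3K36me3 ratio did not follow their order in H3K4me3 ratio, as the values of Ets1, Satb1 and Bcl11b show.

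By H3K36me3 level, in RPM per kb outside the domains, Tcf7 led in CD4 cells at 2.62 and Satb1 in CD8 cells at 2.68. Satb1 at 2.26 and Ets1 at 2.18 followed in CD4 cells and did not differ beyond counting error. In CD8 cells Ets1 at 2.16 and Tcf7 at 2.00 likewise overlapped. Lef1 was next in both, at 1.81 in CD4 cells and 1.65 in CD8 cells. Gata3, Bcl11b and Tox were lowest, between 0.989 and 1.21 in CD4 cells and between 0.617 and 1.04 in CD8 cells.

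Tox had an uneven profile along its length. The stretch from the gene-side edge of the main domain to the end of the window was cut into 3 equal parts, promoter-side, middle and far. In these Tox had folds over input of 1.31, 1.83 and 3.53 in CD4 cells, and 1.39, 2.14 and 3.18 in CD8 cells. Tox H3K36me3 was thus densest over the far end of the gene in both cell types. Gata3 was lowest in the far part, with folds of 6.45, 6.88 and 1.88 in CD4 cells and 4.58, 9.52 and 0.849 in CD8 cells. Gene ends were not placed in mm9, so the far part of the Gata3 window may lie partly beyond the gene.

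**Figure D3:**
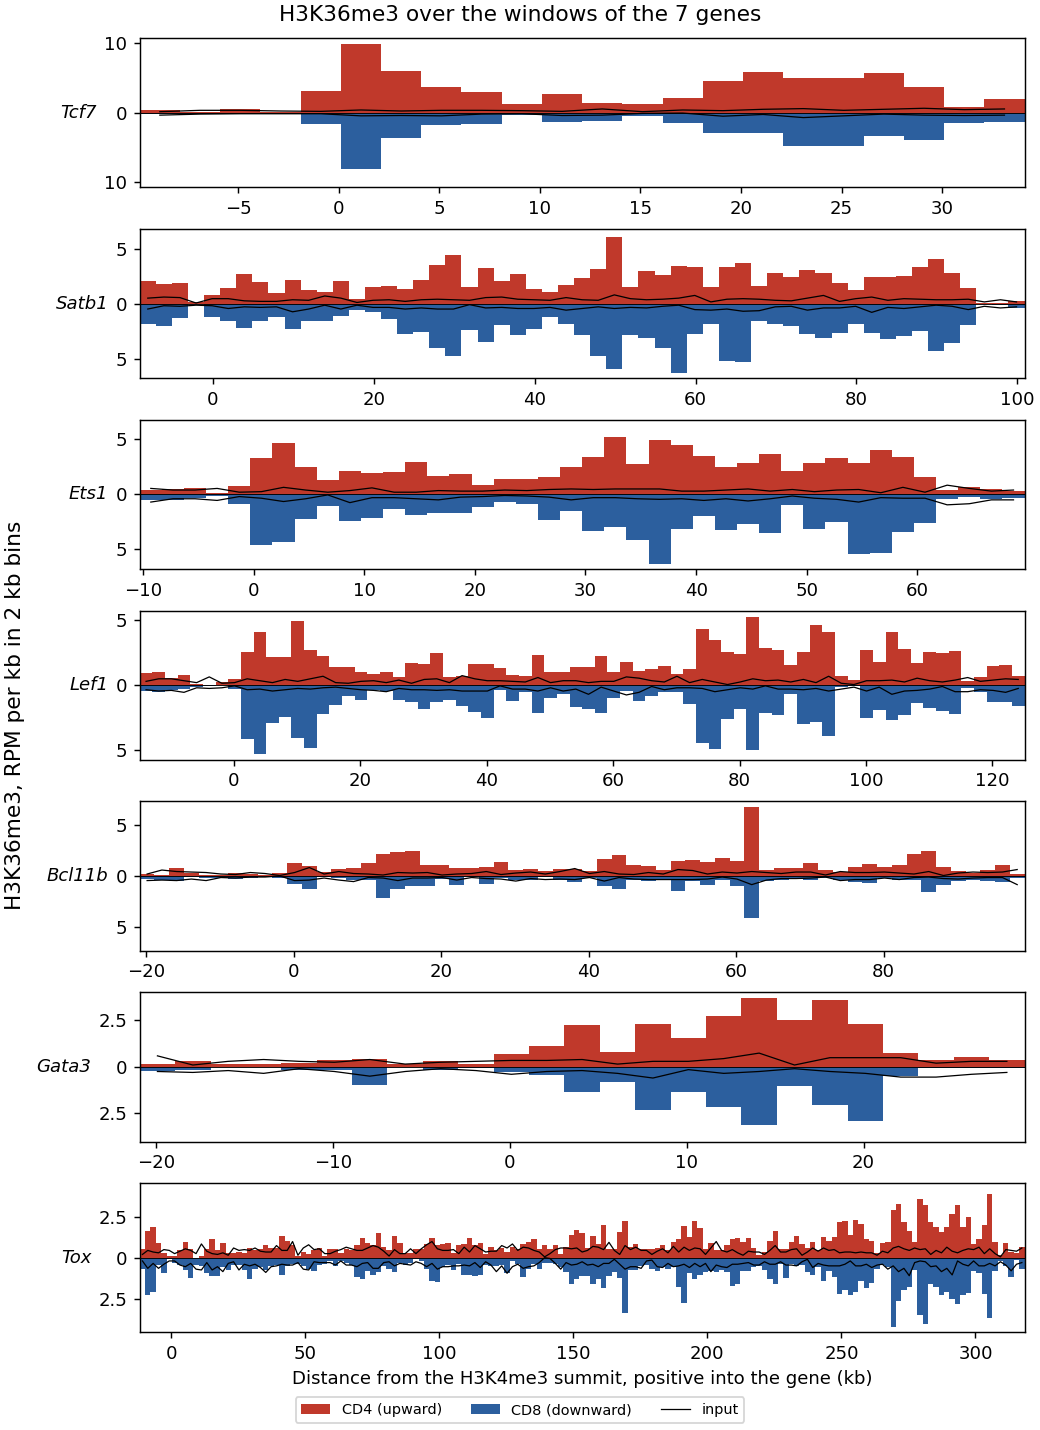
H3K36me3 in RPM per kb, in 2 kb bins, over the window of each gene by distance in kb from the H3K4me3 summit, with CD4 cells upward, CD8 cells downward and input as a thin line for each. The 2 profiles are near mirror images at Satb1, Ets1, Lef1 and Tox, while Bcl11b, with 790 reads in CD4 cells against 458 in CD8 cells, is taller upward.

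Both marks overlapped at Tcf7. Inside its main H3K4me3 domain H3K36me3 was 15.2-fold over input in CD4 cells (10.7 to 22.2) and 9.53-fold in CD8 cells (6.66 to 14.03). Only 1.54% of the 259 domains of at least 4 kb were as high in CD4 cells, and 8.49% in CD8 cells. A Tcf7 bin at chr11:52093001-52094000 had 1761 H3K4me3 reads in CD4 cells against 986 in CD8 cells. In the same bin H3K36me3 had 84 reads in CD4 cells against 69 in CD8 cells, and input had 3 for CD4 and 5 for CD8. Per kb, Tcf7 had more H3K36me3 inside the domain than outside it, 30.3 reads against 17.6 outside in CD4 cells and 19.5 inside against 13.5 outside in CD8 cells.

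Ets1, Lef1 and Satb1 also had H3K36me3 inside their main domains above the median of wide domains, which was 2.00-fold in CD4 cells and 2.43-fold in CD8 cells. Ets1 had 7.33-fold in CD4 cells and 7.89-fold in CD8 cells, and Lef1 7.03-fold in CD4 cells and 10.5-fold in CD8 cells. Satb1 had 5.29-fold in CD4 cells and 4.25-fold in CD8 cells. At Satb1, Ets1 and Lef1, where the gene-side H3K4me3 was much lower in CD8 cells, H3K36me3 reads there were closer in number. They came to 107 reads in CD4 cells against 101 in CD8 cells at Satb1, and to 127 in CD4 cells against 115 in CD8 cells at Ets1. At Lef1 they came to 113 in CD4 cells and 154 in CD8 cells.

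Under its main domain Tox had little H3K36me3, as had Gata3 in CD8 cells, while Bcl11b, and Gata3 in CD4 cells, were near the median of wide domains. Bcl11b had 1.90-fold in CD4 cells and 2.78-fold in CD8 cells, and Gata3 1.87-fold in CD4 cells and 0.787-fold in CD8 cells. Over its 4 domains together Gata3 had 36 H3K36me3 reads in CD4 cells against 13 in CD8 cells, a log2 ratio of 1.51 (0.56 to 2.55), and was the 1 gene of 7 called higher in CD4 cells inside domains. Of the 497 single domains with at least 20 H3K36me3 reads, 1.61% were called higher in CD4 and 2.41% higher in CD8. The Gata3 value rests on few reads. Tox had 1 H3K36me3 read in CD4 cells and 5 in CD8 cells over 3.2 kb, so its domain and its H3K36me3 did not overlap to any extent these depths can show.

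**Figure D4:**
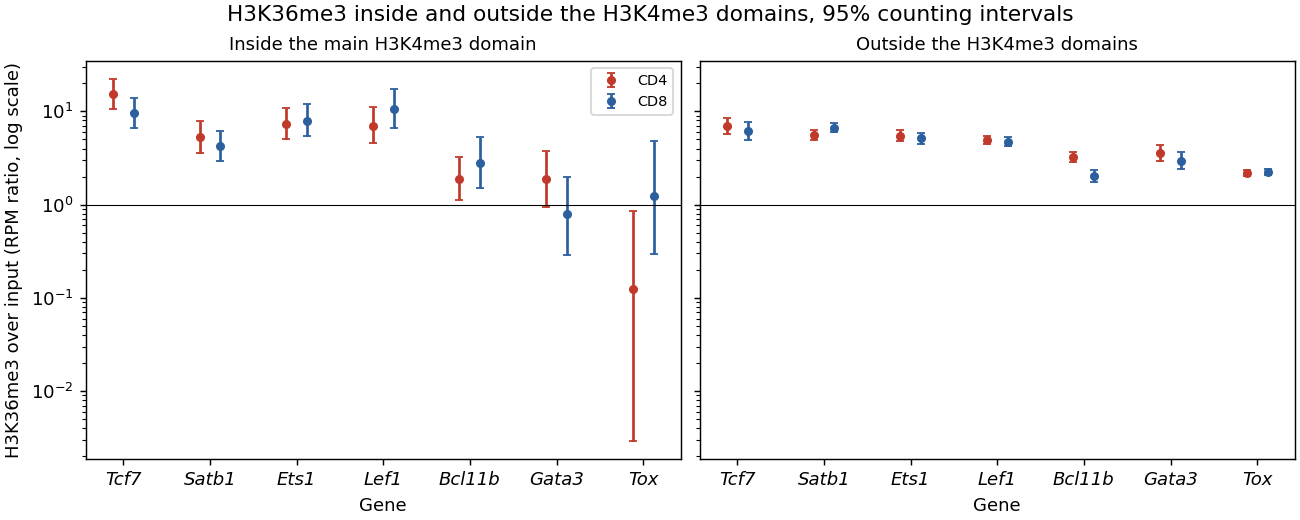
H3K36me3 over input (ratio of RPM, log scale) inside the main H3K4me3 domain (left) and outside the domains (right) for each gene, with CD4 cells left of CD8 cells in each pair and bars for 95% counting intervals. Inside the domain Tcf7 is highest in CD4 cells at 15.2 and Tox lowest at 0.126, while outside it all genes lie between 2.03 and 6.92.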

How the data were processed

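The files the authors deposited list read positions and no other value, with neither strand nor score. Positions are in mm9, as per the submitters' processing notes. Which aligner was used, and whether repeated reads were removed, was not given in the sources used here. Every read was 33 bp wide. The 6 libraries form 6 groups of 1, so nothing was averaged. Reads on the main chromosomes, 98.3% to 99.8% of each library, were counted by midpoint.

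Enrichment needed at least 20 reads and 4 times (H3K4me3) or 2 times (H3K36me3) the input in RPM, with input set to at least 3 reads. Ratios have exact Clopper-Pearson intervals conditional on the sum, which cover counting error only, since no molecular identifiers show which reads are independent. The gene windows, the 7 genes and the lineage loci were chosen with earlier results of these data known. The named genes are all 7. A list of further T cell regulators, genes of like pattern and markers of other thymic cells were not used here, since no mm9 annotation was used. Direction of transcription came from RefSeq strands for 5 genes and from general knowledge for Ets1 and Tox. RefSeq positions are in GRCm38.p6 and were not converted. Neighbouring RefSeq genes within 10 kb are Skp1 at Tcf7 and Hadh at Lef1, and lncRNAs at Lef1, Gata3, Tox and Ets1. The rules for calls and domains were checked on simulated data. Scripts ran in Python 3.11.15 with SciPy 1.17.1, NumPy 2.4.6, matplotlib 3.10.9 and pandas 2.3.3.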

Additional observations from a re-analysis of the deposited data

How the results depend on the processing

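Alternatives were scaling by total reads or by reads in enriched windows, 1 read per position, background subtraction, a thinned deeper library, whole windows, pooled inputs, 3 or 8 times the input, 100 bp bins, gaps of up to 1000 bp, enriched 10 kb windows only and, chosen after seeing the data, a centre from 2 kb windows for H3K36me3. Of 300 values, 262 kept direction and threshold or moved little. The number of genes called higher in CD4 cells for H3K4me3 was 2, and 1 with total reads and with reads in enriched windows, where Satb1 was under 2-fold at 0.63 and 0.97 in that order. Tox had −0.24 with total reads. The number of genes with a wider domain in CD4 cells was 6 of 7 with 8 times the input, gaps of up to 1000 bp or 1 read per position, and the number at least 2-fold wider was 3, and 2 with 1 read per position, gaps of up to 1000 bp or pooled inputs. With pooled inputs H3K36me3 was 2-fold over input in CD8 cells at 6 genes of 7, with Bcl11b at 1.95. The remaining 33 values that moved were domain widths of single genes. The sign of the H3K36me3 ratio was the same at all 7 genes in all 8 alternatives. The causes were not tested. No paired analysis was possible because each group had 1 library, and for the same reason no replicate could be left out. Depth limits H3K36me3 inside narrow domains, where Gata3 had 21 reads in CD4 cells against 8 in CD8 cells.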
